A study of Mus musculus with 16 samples.

Results

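The transcripts of 10 secreted ligands that act on blood and lymph vessels were followed in RNA-seq of mouse heart slices. They are Vegfa, Vegfb, Vegfc and Pgf of the vascular endothelial growth factor (VEGF) family, Angpt1 and Angpt2 of the angiopoietin family, the angiopoietin-like Angptl2 and Angptl4, and the peptide hormone genes Adm and Apln. Members were chosen by gene symbol, and all 10 were among the 55487 genes of the count table and among the 24971 genes tested. The slices came from male mice aged 8 weeks. Swhtr null mice carried a transcription stop signal on both alleles of the cardiac long non-coding RNA Swhtr (genotype Swhtr3xpA/3xpA), and WT mice were C57Bl6/J. Treated slices spent 7 days at 3% oxygen and then 7 days at 21% oxygen, and untreated slices spent 14 days at 21% oxygen, so all slices ended their culture at 21% oxygen. There were 4 libraries each of treated Swhtr null, untreated Swhtr null, treated WT and untreated WT slices. The study describes 4 mice per genotype, so the 8 libraries of a genotype cannot all be from different mice, and their assignment was not given in the sources used here. The Swhtr null strain was made in hybrid embryonic stem cells, backcrossed and bred as homozygotes, so Swhtr null and WT mice were not littermates.

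VEGF-A is the main growth factor of endothelial cells and signals through the receptor KDR, while PlGF (Pgf) and VEGF-B bind the decoy-like receptor FLT1 and VEGF-C acts on lymphatic vessels through FLT4. Angiopoietin-1 activates the receptor TEK and stabilizes vessels, and angiopoietin-2 competes with it on the same receptor. In low oxygen the hypoxia-inducible factors (HIF) switch on Vegfa and Adm together with genes of glycolysis, and reoxygenation leads to HIF degradation.

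The count totals were 17830351 to 29941903 per library. The 12 cardiomyocyte markers summed to 263 to 450 CPM over all 16 libraries, of which Atp2a2, a calcium pump that other cell types use too, made up most, with group means of 279 to 328 CPM. Myh6, the main myosin heavy chain of adult mouse heart muscle, was at 8.88 ± 9.93 CPM in treated Swhtr null, 0.101 ± 0.038 CPM in untreated Swhtr null, 4.23 ± 4.19 CPM in treated WT and 0.343 ± 0.227 CPM in untreated WT slices (SD, n = 4 each). CPM are counts scaled to a common library size. Tnnt2, cardiac troponin T, averaged 15.6 CPM in treated Swhtr null, 2.32 CPM in untreated Swhtr null, 7.74 CPM in treated WT and 4.76 CPM in untreated WT slices. Ryr2, Pln, Nppa and Actn2 averaged under 1 CPM over the 16 libraries. Fibroblast markers summed to 24320 to 34588 CPM, macrophage markers to 8011 to 23044 CPM and endothelial markers to 1581 to 2628 CPM over all 16 libraries. Replicate 2 of the treated Swhtr null slices stood apart with the lowest macrophage sum, 8011 CPM against 14912 to 19072 CPM in the other 3 libraries of its group.

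Per kilobase of exon, Apln and Vegfa were the most abundant of the ligands. Over the 16 libraries Apln averaged 221 ± 38.4 and Vegfa 186 ± 34.8 CPM per kb (SD). Angptl4 followed at 110 ± 13.5, Adm at 80.5 ± 20.7, Pgf at 77.6 ± 11.6 and Angpt2 at 73.8 ± 15.8 CPM per kb. Angptl2 was at 39.9 ± 4.65, Vegfb at 19.0 ± 2.06 and Vegfc at 7.97 ± 1.03 CPM per kb. Angpt1 was the lowest at 1.92 ± 0.681 CPM per kb. The ranges of neighbours in this order overlapped from Apln down to Angptl2. Those of Angptl2 and Vegfb, of Vegfb and Vegfc and of Vegfc and Angpt1 did not overlap in any library.

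**Figure D1:**
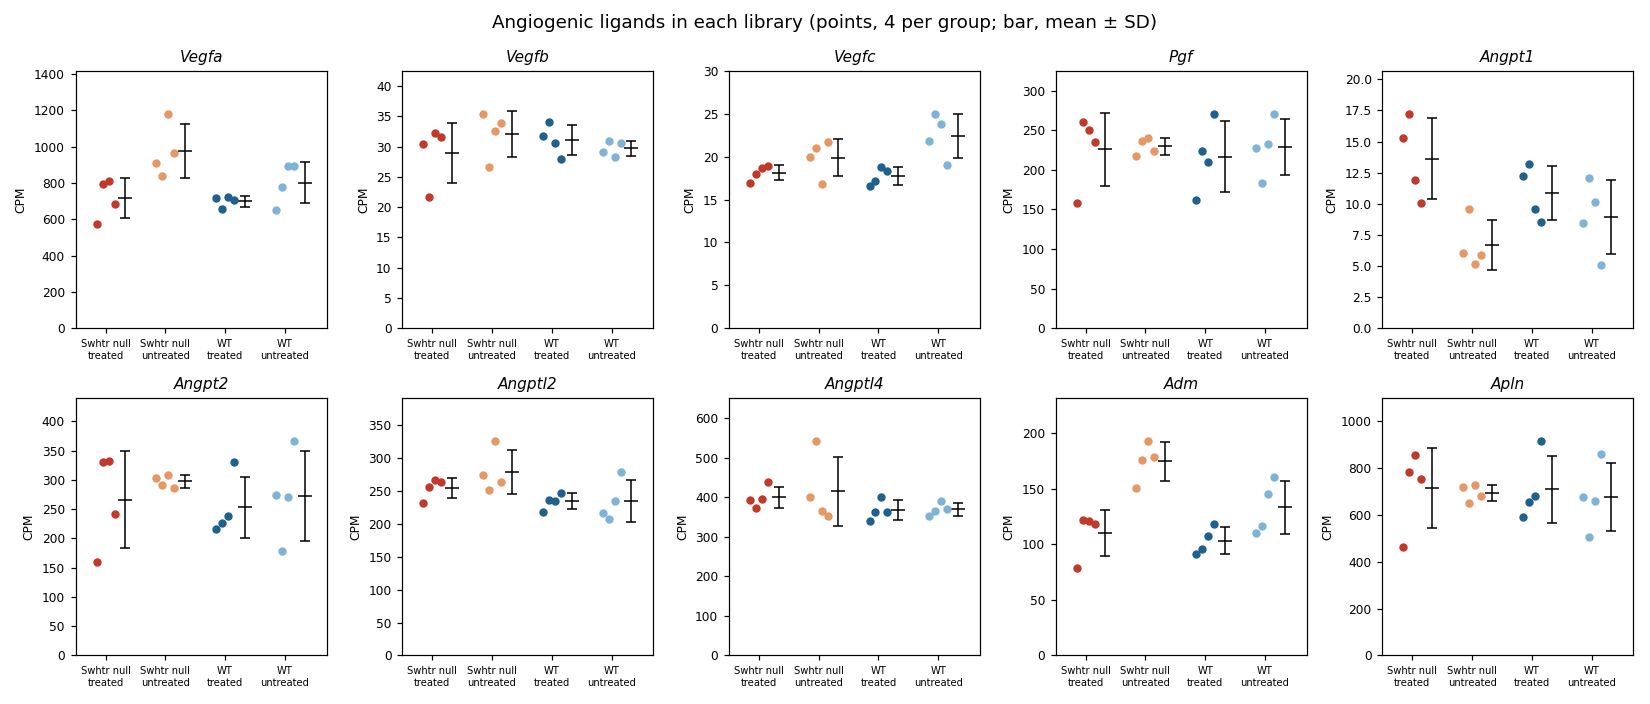
CPM of each ligand in every library, with 1 point per library, 4 libraries per group, and the mean ± SD beside them. The treated Swhtr null points lie below the untreated ones for Adm and Vegfa and above them for Angpt1 with no overlap. Within treated Swhtr null, treated WT and untreated WT slices, the same library of the group is the lowest for Pgf, Angpt2 and Apln.

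The comparison of treated with untreated slices asks whether a past week of low oxygen left a trace in these transcripts. In Swhtr null slices 1 of the 10 ligands, Adm, was called changed by edgeR, where a call needed an adjusted p below 0.05 together with a log2 fold change beyond 0.58 in size (1.5-fold). Over all genes tested 0.621% were called in this comparison. In WT slices 0 ligands and 0% of all genes were called. At an unadjusted p under 0.05, 3 ligands (1 higher, 2 lower) differed in Swhtr null and 2 (both lower) in WT slices. Among all genes 4127 (16.5%) did so in Swhtr null and 1202 (4.81%) in WT slices. The median log2 fold change of the 10 ligands was -0.13 in Swhtr null and -0.04 in WT slices, and that of all genes tested was 0.01 in both. In the fit with the replicate number as a block within each genotype, 2 ligands (Adm and Angpt1) were called in Swhtr null slices, and 2.47% of all genes. The numbers were taken to pair these libraries from correlations in the same data, and the pairing is uncertain. DESeq2 also called these 2 ligands, with 1.84% of all genes.

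Adm encodes adrenomedullin, a vasodilator peptide that also maintains lymphatic vessels, and it fell in treated Swhtr null slices. It was at 78.9, 122, 121 and 118 CPM in the treated Swhtr null libraries, against 150.4, 176, 193 and 179 CPM in the untreated ones. Every treated value was below every untreated one. For this and the other groups said not to overlap, the share of all genes that separated so was not determined. The means were 110 ± 20.7 CPM in treated and 175 ± 17.8 CPM in untreated slices (SD, n = 4 each), a 1.59-fold lower level (log2 fold change -0.67, standard error 0.15, 95% interval -0.99 to -0.35, adjusted p = 0.030). With the replicate block the log2 fold change was -0.68 with a standard error of 0.063 (adjusted p = 1.5e-07). The call was lost without treated Swhtr null replicate 1, the lowest library, where the log2 fold change was -0.54 and thus under the fold threshold (adjusted p = 0.043). It was also lost, by the adjusted p, without treated Swhtr null replicate 2 (0.061) or 4 (0.052) and without untreated Swhtr null replicate 3 (0.10) or 4 (0.11).

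In WT slices Adm was at 91.6, 96.1, 107 and 119 CPM in treated libraries and at 110.5, 116, 146 and 161 CPM in untreated ones, and the groups overlapped. The log2 fold change was -0.37 (standard error 0.15, unadjusted p = 0.026, adjusted p = 1.0), which did not pass the test. Averaged over both genotypes it was -0.52 (standard error 0.11, adjusted p = 0.023), past the p threshold and under the fold threshold. The difference of the responses, Swhtr null minus WT, was -0.30 with a 95% interval of -0.75 to 0.15 (adjusted p = 0.76), so the responses were not shown to differ.

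The Adm gene lies on the plus strand of chromosome 7 (GRCm38, 110627661 to 110629820). HIF proteins bind the core letters ACGTG or GCGTG, which read CACGT or CACGC on the other strand. The promoters of Adm, which holds this core, and of Vegfa, whose main window holds none, were picked with these matches in view. Any link between the letters and the changes was not tested. The 250 bases before the RefSeq start (GRCm38.p6) are given 5′ to 3′ on the gene's strand, with matches to the core in capitals.
Adm, chr7:110627407-110627656, plus strand: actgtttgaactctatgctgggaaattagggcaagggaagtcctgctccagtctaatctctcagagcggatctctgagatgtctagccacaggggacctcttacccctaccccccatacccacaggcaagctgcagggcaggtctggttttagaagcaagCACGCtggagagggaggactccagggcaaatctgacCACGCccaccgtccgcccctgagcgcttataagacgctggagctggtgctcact
Vegfa, chr17:46032378-46032627, minus strand: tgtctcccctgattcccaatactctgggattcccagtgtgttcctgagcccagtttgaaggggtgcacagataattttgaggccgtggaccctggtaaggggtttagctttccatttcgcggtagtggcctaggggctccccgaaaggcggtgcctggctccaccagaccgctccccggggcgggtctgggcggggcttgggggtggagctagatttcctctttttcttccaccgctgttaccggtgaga
In the Adm promoter the letters CACGC start 90 and 54 bases before the start site. Of the 9 promoter windows found for 7 of the ligands (each 300 bases, the last 50 from the start site on), 4 held at least 1 match, and so did 43.8% of 32851 mouse windows of the same length. The 4 are windows of Adm, Pgf, Vegfb and a second, internal start of Vegfa. Those of Angptl2, Vegfc and Apln held none. At least 2 matches, as for Adm, Vegfb and the internal start of Vegfa, were held by 20.6% of the mouse windows. Letters farther from the start sites are not covered, for Vegfa as for the other ligands. Such a match is a description of letters and not of binding.

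Vegfa was lower in treated Swhtr null slices in every library, and its change was not called. It was at 573, 792, 812 and 683 CPM in treated and at 910.2, 838, 1181 and 966 CPM in untreated Swhtr null libraries. The lowest untreated value exceeded the highest treated one, 838 against 812 CPM. The log2 fold change was -0.45 (standard error 0.12, 95% interval -0.70 to -0.19, adjusted p = 0.067). With the replicate block it was -0.45 with an adjusted p = 0.0099, which stays under the fold threshold. In WT slices Vegfa was at 716, 656, 723 and 704 CPM in treated and at 651, 777, 891 and 891 CPM in untreated libraries, and the groups overlapped (log2 fold change -0.20, standard error 0.12, unadjusted p = 0.12). The average over both genotypes was -0.32 (standard error 0.086, adjusted p = 0.068). Vegfa spans 46016993 to 46032369 on the minus strand of chromosome 17.

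Angpt1 was the ligand with the widest difference, in the opposite direction to Adm and Vegfa. It was at 15.2, 17.2, 11.95 and 10.03 CPM in treated and at 6.03, 9.62, 5.14 and 5.90 CPM in untreated Swhtr null libraries. The groups did not overlap, although the lowest treated and the highest untreated library were close, 10.03 against 9.62 CPM. These values rest on 252 to 475 counts per treated and 103 to 171 counts per untreated library. The log2 fold change was 1.03 (standard error 0.26, 95% interval 0.48 to 1.59, adjusted p = 0.054), which missed the p threshold in the fit without the block. With the block Angpt1 was called (log2 fold change 1.04, standard error 0.14, adjusted p = 1.3e-05), and DESeq2 called it as well (1.03, standard error 0.26, adjusted p = 0.0023). With each library left out in turn it was called in only 4 of 16 fits, and the adjusted p reached 0.20. Those 4 were the fits without treated Swhtr null replicate 4 (adjusted p = 0.045), untreated Swhtr null replicate 2 (adjusted p = 0.012), untreated WT replicate 2 (adjusted p = 0.044) or untreated WT replicate 4 (adjusted p = 0.017).

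In WT slices Angpt1 was at 12.2, 13.2, 9.56 and 8.55 CPM in treated and at 8.45, 12.03, 10.1 and 5.06 CPM in untreated libraries, with overlap (log2 fold change 0.29, standard error 0.26, unadjusted p = 0.28). The average over both genotypes was 0.66 (standard error 0.18, adjusted p = 0.091). Over the 10 ligands 0 were called for this average, against 0.360% of all genes. DESeq2 called 1 ligand, Angpt1 (0.65, standard error 0.18, adjusted p = 0.0089), and 0.885% of all genes, and the fit with the block within each genotype also called Angpt1 alone among the ligands and 1.10% of all genes. The difference of the responses, Swhtr null minus WT, was 0.75 with a 95% interval of -0.033 to 1.53 (unadjusted p = 0.059, adjusted p = 0.71). Exons of Angpt1 (chromosome 15, 42424723 to 42676977, minus strand) overlap those of the plus-strand gene Gm17473. The strand setting of the counting was not given in the sources used here, so reads of the overlap cannot be assigned to either.

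**Figure D2:**
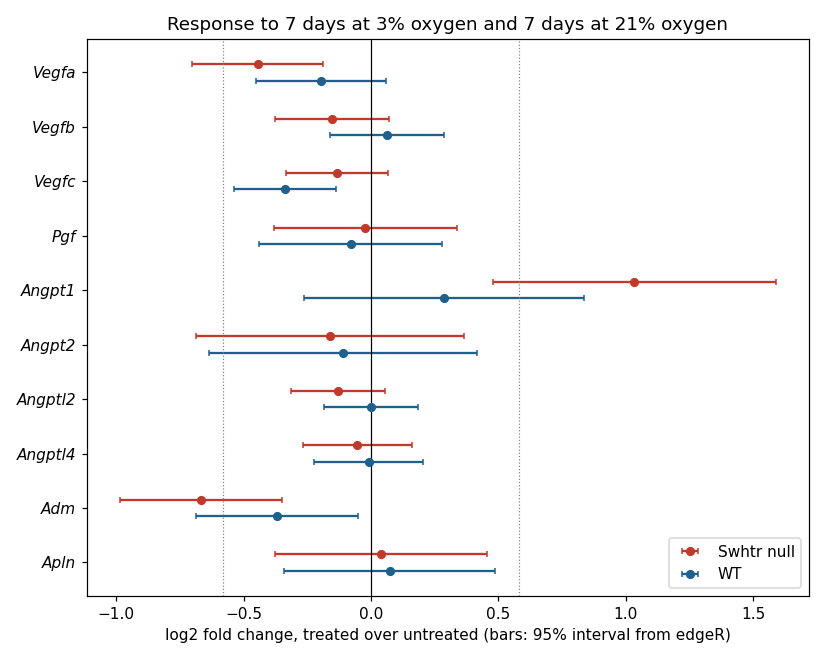
Log2 fold change of treated over untreated slices for each ligand in Swhtr null (red, upper) and WT (blue, lower) slices, with 95% intervals and dotted lines at the fold threshold of 0.58. The Swhtr null interval lies below 0 for Adm (-0.67) and Vegfa (-0.45) and above 0 for Angpt1 (1.03), and in WT slices those of Adm (-0.37) and Vegfc (-0.34) lie below 0.

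Angpt2, whose gene lies within that of Mcph1 on the opposite strand (chromosome 8, 18690263 to 18741562), varied between libraries more than between groups. It was at 160, 330, 333 and 242 CPM in treated and at 303, 292, 309 and 286 CPM in untreated Swhtr null libraries. In WT slices it was at 215, 227, 239 and 331 CPM in treated and at 274, 179, 272 and 367 CPM in untreated libraries. The log2 fold changes were -0.16 (95% interval -0.69 to 0.36) in Swhtr null and -0.11 (-0.64 to 0.42) in WT slices. The ratio of Angpt2 to Angpt1 per kilobase, which sets the competitor against the activator of TEK, was 14.8, 27.0, 39.3 and 34.01 in treated and 71.0, 42.8, 84.8 and 68.3 in untreated Swhtr null libraries. In this pair of groups the ratios did not overlap. They were 24.9, 24.3, 35.2 and 54.5 in treated and 45.8, 21.0, 37.8 and 102.2 in untreated WT libraries, with overlap. Neither ligand was called in the fit without the block, and the ratio was not tested.

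**Figure D3:**
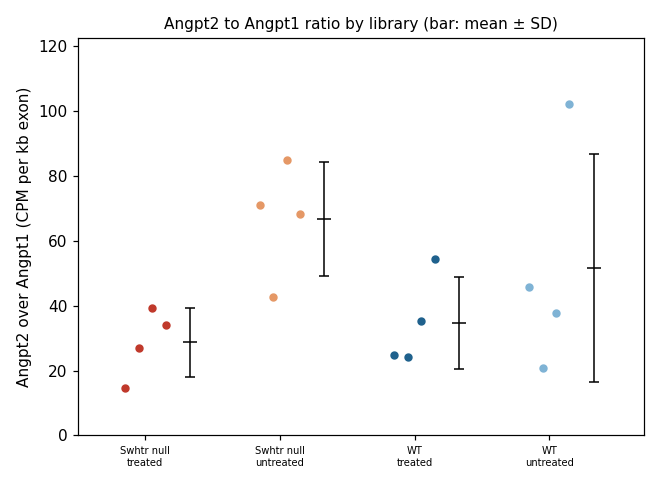
Ratio of Angpt2 to Angpt1 (each in CPM per kb of exon) in every library, with the mean ± SD of each group beside its 4 points. Treated Swhtr null libraries lie between 14.8 and 39.3 and untreated ones between 42.8 and 84.8, while the WT groups overlap.

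The other VEGF ligands differed less. Vegfc was at 16.5, 17.1, 18.8 and 18.4 CPM in treated and at 21.8, 25.004, 23.8 and 19.0 CPM in untreated WT libraries, without overlap. Its log2 fold change in WT slices was -0.34 (standard error 0.096, unadjusted p = 0.0020, adjusted p = 1.0), which did not pass the test. In Swhtr null slices it was at 16.9, 18.0, 18.7 and 18.9 CPM in treated and at 20.01, 21.0, 16.8 and 21.7 CPM in untreated libraries (log2 fold change -0.13, standard error 0.096). Averaged over both genotypes Vegfc was at -0.24 on the log2 scale (standard error 0.068, adjusted p = 0.083). Vegfb, which acts mainly on FLT1, was at 21.7 to 32.2 CPM in treated and 26.7 to 35.4 CPM in untreated Swhtr null slices, and at 28.0 to 33.99 CPM in treated and 28.3 to 30.9 CPM in untreated WT slices. Its intervals were -0.38 to 0.07 in Swhtr null and -0.16 to 0.29 in WT slices. Pgf was at 158, 260, 251 and 235 CPM in treated and at 218, 236, 240 and 224 CPM in untreated Swhtr null libraries. In WT slices Pgf was at 162, 223, 210 and 270 CPM in treated and at 228, 184, 233 and 271 CPM in untreated libraries. The treated and untreated values of Pgf overlapped in both genotypes, and replicate 1 was the lowest library of both treated groups. Its intervals were -0.38 to 0.34 in Swhtr null and -0.44 to 0.28 in WT slices. Differences within these intervals are not excluded with 4 libraries per group.

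Angptl4, which inhibits lipoprotein lipase and is induced by both HIF and PPAR factors, was at 373 to 438 CPM in treated and 352 to 543 CPM in untreated Swhtr null slices. In WT slices it was at 341 to 402 CPM in treated and 352 to 391 CPM in untreated libraries. The intervals of its log2 fold change, -0.27 to 0.16 in Swhtr null and -0.22 to 0.20 in WT slices, lay within the fold threshold on both sides. Those of Angptl2, a secreted ligand of the paired immunoglobulin-like receptor Pirb, were -0.32 to 0.05 in Swhtr null and -0.19 to 0.18 in WT slices. Apln encodes apelin, a peptide made by endothelial tip cells. It varied mainly within the groups. It was at 463, 784, 853 and 752 CPM in treated and at 717, 651, 726 and 682 CPM in untreated Swhtr null libraries. In WT slices Apln was at 590, 652, 678 and 914 CPM in treated and at 674, 506, 657 and 859 CPM in untreated libraries. The log2 fold changes of Apln were 0.04 (-0.38 to 0.46) in Swhtr null and 0.07 (-0.34 to 0.49) in WT slices.

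Among the receptors of these ligands 0 of 16 listed genes, with the lipase partners of Angptl4 counted in, were called in either genotype. Of all genes, 0.621% were called in Swhtr null and 0% in WT slices. Kdr, the main receptor of VEGF-A, was at 158 ± 19.7 CPM in treated and 111 ± 12.6 CPM in untreated Swhtr null slices (SD, n = 4 each), and its log2 fold change, 0.51 ± 0.12 (standard error), passed the p threshold (adjusted p = 0.027) and not the fold threshold. In WT slices Kdr was at 144 ± 26.2 CPM in treated and 122 ± 6.003 CPM in untreated libraries (log2 fold change 0.24, unadjusted p = 0.053). Flt1 was at 127 ± 32.0 CPM in treated and 137 ± 8.72 CPM in untreated Swhtr null slices (log2 fold change -0.11). The VEGF co-receptors Nrp1 and Nrp2 had log2 fold changes of 0.11 and -0.03 in Swhtr null and of 0.03 and 0.12 in WT slices. Flt4, the receptor of VEGF-C, had a log2 fold change of 0.44 in Swhtr null and 0.06 in WT slices (adjusted p = 0.20 in Swhtr null). The angiopoietin receptor Tek had a log2 fold change of 0.30 (adjusted p = 0.24) and its partner Tie1 one of 0.44 (adjusted p = 0.24) in Swhtr null slices. Calcrl and Ramp2, which together form an adrenomedullin receptor, had log2 fold changes of 0.15 and 0.30 in Swhtr null and of 0.11 and 0.36 in WT slices. The other receptor partners Ramp1 and Ramp3 were scarce and had values of -0.27 and -0.48 in Swhtr null and of 0.28 and 0.33 in WT slices, and the scavenger receptor Ackr3 had 0.01 and -0.10. The apelin receptor Aplnr was scarce, with 5.94 ± 2.20 CPM in treated and 3.50 ± 1.12 CPM in untreated Swhtr null slices (log2 fold change 0.76, adjusted p = 0.24). Pirb, the receptor of Angptl2, had -0.32 in Swhtr null and 0.12 in WT slices, and the lipase gene Lpl had -0.10 and 0.17. Gpihbp1, which anchors lipoprotein lipase on capillaries, had log2 fold changes of 0.44 in Swhtr null and 0.46 in WT slices (adjusted p = 0.064 for their average).

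Of 10 further ligands of the same families, 9 were tested and 1 was called. The share called over all genes, for this and the next lists, was 0.621% in Swhtr null and 0% in WT slices. Adm2, the close relative of adrenomedullin also known as intermedin, fell in treated Swhtr null slices to 4.58 ± 0.506 CPM, against 8.21 ± 1.46 CPM in untreated ones (SD, n = 4 each, log2 fold change -0.84, standard error 0.15, adjusted p = 0.0053). In WT slices Adm2 was at 5.80 ± 0.725 CPM in treated and 6.88 ± 0.739 CPM in untreated libraries (log2 fold change -0.25, unadjusted p = 0.12). Vegfd had a log2 fold change of 1.02 in Swhtr null slices with a standard error of 0.45 (adjusted p = 0.28). Among 26 HIF targets outside the 10 ligands, 26 had a negative log2 fold change in Swhtr null slices, with a median of -0.49 against 0.01 over all genes tested, and 7 were called lower. In WT slices 25 of the 26 were negative with a median of -0.23, and 0 were called. Among untreated slices all 26 were higher in Swhtr null than in WT (median log2 fold change 0.19). Among treated slices 22 were lower in Swhtr null and 4 higher (median -0.11). The difference of the responses was called for 0 of the 26 and 0% of all genes. Those called in Swhtr null slices included Ddit4, an inhibitor of mTOR signaling, at 132 ± 15.3 CPM in treated and 230 ± 10.3 CPM in untreated slices (log2 fold change -0.81, adjusted p = 0.0013). Bhlhe40, a transcriptional repressor, was at 133 ± 11.2 CPM in treated and 202 ± 13.7 CPM in untreated Swhtr null slices (-0.59, adjusted p = 0.0013). The glycolytic gene Pgk1 and the glucose transporter Slc2a1 had log2 fold changes of -0.60 (adjusted p = 0.0042) and -0.70 (adjusted p = 0.042). Bnip3, Ankrd37 and Ero1a complete the 7. Higd1a and Gys1, with log2 fold changes of -0.50 and -0.43, were among several more of the 26 that passed the p threshold and not the fold threshold. Of 12 PPAR targets, 11 VEGF-responsive endothelial genes and 9 inhibitors of vessel growth, 0 were called in either genotype. Lama4, a laminin chain of vessel walls, had a log2 fold change of 0.47 in Swhtr null slices (adjusted p = 0.0040), under the fold threshold.

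**Figure D4:**
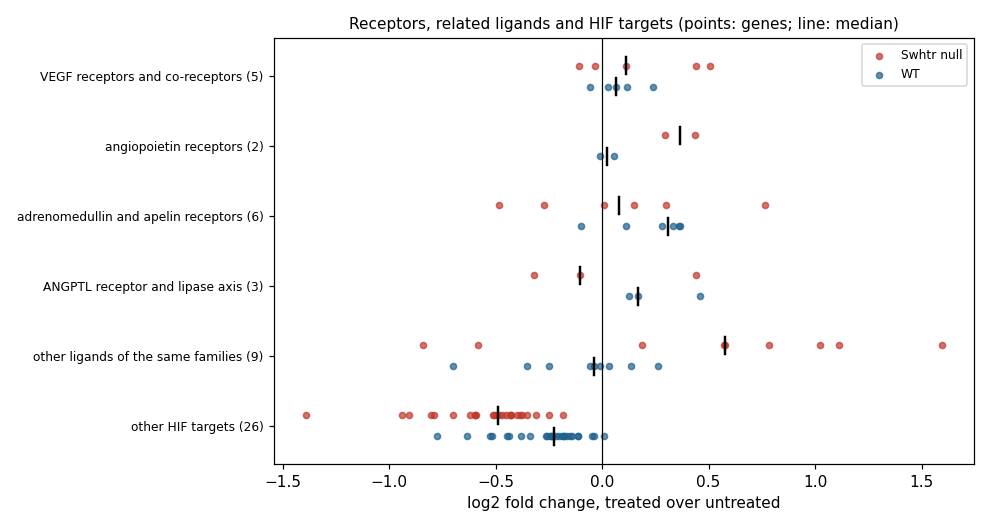
Log2 fold change of treated over untreated slices for the genes of 6 lists in Swhtr null (red, upper) and WT (blue, lower) slices, with 1 point per gene tested and a black line at the median. The 26 HIF targets lie left of 0 in Swhtr null slices with a median of -0.49 and, except for 1, in WT slices with a median of -0.23.

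Cell type markers differed in the same comparison. All 12 cardiomyocyte markers had positive log2 fold changes in both genotypes, with a median of 2.76 in Swhtr null and 1.34 in WT slices and 0 called in either. At an unadjusted p under 0.05, 8 of them were higher in Swhtr null and 2 in WT slices. Among all genes, 16.5% in Swhtr null and 4.81% in WT slices had such a p, in either direction. Their sums were 328 to 450 CPM in treated and 263 to 319 CPM in untreated Swhtr null libraries, without overlap, and 302 to 344 CPM in treated and 285 to 319 CPM in untreated WT libraries. Most of these sums was Atp2a2, which, as stated above, other cell types use too. All 15 macrophage markers had negative log2 fold changes in Swhtr null slices, with 0 called and summed levels of 8011 to 19072 CPM in treated and 15098 to 23044 CPM in untreated libraries. In WT slices the sums were 17877 to 19751 CPM in treated and 16516 to 22556 CPM in untreated libraries. All 11 smooth muscle and pericyte markers had positive log2 fold changes in Swhtr null slices, with sums of 1182 to 1483 CPM in treated and 813 to 1102 CPM in untreated libraries, and sums of 1076 to 1252 CPM in treated and 917 to 1374 CPM in untreated WT libraries. Of 12 endothelial markers 10 had positive values in Swhtr null slices, with sums of 1682 to 2628 CPM in treated and 1611 to 1941 CPM in untreated libraries. In WT slices 8 had positive values, with sums of 1581 to 2440 CPM in treated and 1690 to 2292 CPM in untreated libraries. Of 11 fibroblast markers 9 had positive values in Swhtr null and 5 in WT slices. Fibroblast markers summed to 26963 to 34588 CPM in treated and 24320 to 28891 CPM in untreated Swhtr null libraries, with Dpt called higher (log2 fold change 0.97, adjusted p = 0.049). In WT libraries the fibroblast sums were 25290 to 30403 CPM in treated and 25296 to 30732 CPM in untreated slices. The share called over all genes was 0.621% in Swhtr null and 0% in WT slices. The part of these cell types in the values of Adm, Vegfa and Angpt1 was not tested. In bulk RNA, fewer cells of a type and less RNA per cell cannot be told apart.

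The comparison of Swhtr null with WT slices asks how the ligands differed between the lines at either oxygen history. The stop signal in Swhtr and any other difference between lines that were bred apart cannot be told apart here. Among treated slices 0 of the 10 ligands and 0.0921% of all genes were called, and 0 ligands had an unadjusted p under 0.05, against 1560 of all genes (6.25%). Among untreated slices 0 ligands and 0.100% of all genes were called. An unadjusted p under 0.05 was found for 3 ligands, all with higher levels in Swhtr null slices, and for 1338 of all genes (5.36%). Adm averaged 175 ± 17.8 CPM in untreated Swhtr null and 133 ± 23.9 CPM in untreated WT slices (SD, n = 4 each), a log2 fold change of 0.39 (unadjusted p = 0.020, adjusted p = 0.90). Vegfa averaged 974 ± 148 CPM in untreated Swhtr null and 802 ± 114 CPM in untreated WT slices (0.28, unadjusted p = 0.034, adjusted p = 0.90). Angptl2 averaged 279 ± 32.97 CPM in untreated Swhtr null and 235 ± 32.0 CPM in untreated WT slices (0.25, unadjusted p = 0.011, adjusted p = 0.90). In treated slices Adm averaged 110 ± 20.7 CPM in Swhtr null and 103 ± 12.05 CPM in WT, and Vegfa averaged 715 ± 110 CPM in Swhtr null and 699.9 ± 30.4 CPM in WT. The difference of the responses was called for 0 of the 10 ligands and 0% of all genes, with 1721 genes (6.89%) and 0 ligands at an unadjusted p under 0.05. In the fit with the replicate block within each genotype, 0 ligands and 0.208% of all genes (52) were called for this difference, although the numbers were taken to pair only the Swhtr null libraries. In that fit it was 0.72 for Angpt1 (unadjusted p = 0.0010, adjusted p = 0.078) and -0.33 for Adm (unadjusted p = 0.0011, adjusted p = 0.081), and Vegfb also had an unadjusted p under 0.05 (-0.22, adjusted p = 0.43). These comparisons share groups with the treatment comparisons and are not independent of them.

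Some ligands varied together over the 16 libraries, differences between groups included. Of the 45 pairs of ligands, 11 had an adjusted p under 0.05 for Pearson's r over the 16 libraries (100000 permutations, smallest p 1e-05). The permutations shuffled all 16 libraries regardless of group, so these p-values include the differences between groups. The r values for deviations from the group means, given below, were not tested. Some of these libraries share a mouse, which the permutations also ignored. Angpt2 and Apln had r = 0.91 and rho = 0.86 (permutation p = 1e-05 and 4e-05, adjusted p = 0.00011 and 0.00060). Without the 2 libraries farthest from the median, r was 0.78, and for deviations from the group means it was 0.96. Pgf and Apln had r = 0.90 and rho = 0.83 (permutation p = 1e-05 and 0.00011, adjusted p = 0.00011 and 0.0012), with r = 0.91 without the farthest 2 and 0.93 for deviations from the group means. Vegfa and Adm had r = 0.90 and rho = 0.89 (permutation p = 1e-05 and 2e-05, adjusted p = 0.00011 and 0.00045), with r = 0.85 without the farthest 2 and 0.77 for the deviations. Angpt1 ran against Adm, with r = -0.75 and rho = -0.64 (permutation p = 0.00090 and 0.0092, adjusted p = 0.0081 and 0.041), and r = -0.65 without the farthest 2 and -0.47 for the deviations.

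**Figure D5:**
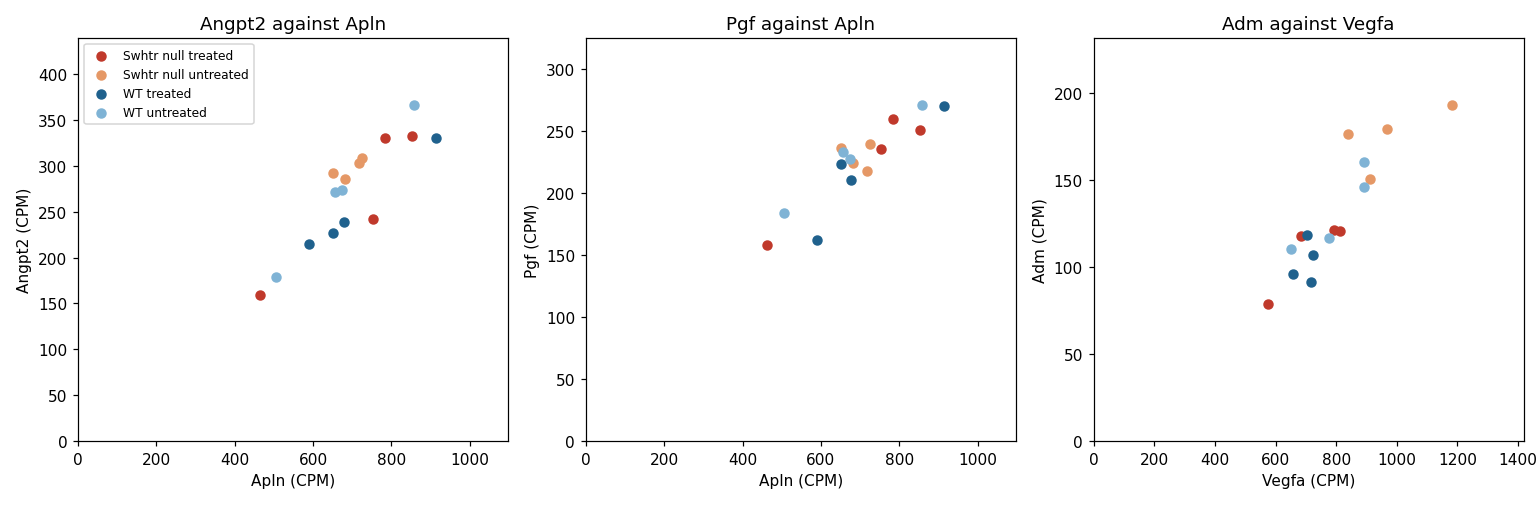
CPM of Angpt2 against Apln, Pgf against Apln and Adm against Vegfa, with 1 point per library colored by group. Treated Swhtr null replicate 1 and untreated WT replicate 2 sit at the low end for Apln (463 and 506 CPM) and for Angpt2 (160 and 179 CPM), and the 3 highest Adm values (176, 179 and 193 CPM) are untreated Swhtr null libraries.

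The same 3 libraries were the lowest of their groups for Pgf, Angpt2 and Apln, treated Swhtr null replicate 1, treated WT replicate 1 and untreated WT replicate 2. Their endothelial marker sums were also the lowest of their groups, at 1682, 1581 and 1690 CPM. Their mesothelial marker sums were the highest of their groups, at 35.9, 52.7 and 90.5 CPM, against 8.42 to 32.99 CPM in the other libraries of those groups. Untreated Swhtr null slices shared this only in part. Replicate 2 had the highest mesothelial sum of that group (33.3 CPM). Its endothelial sum (1941 CPM) was close to those of replicates 1 and 3 (1908 and 1939 CPM). Its Apln level was the lowest of the group (651 CPM), while its Pgf and Angpt2 levels (236 and 292 CPM) were not. The part of these cell types in the covariation was not tested.

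The genes with the most similar pattern over the 16 libraries were taken from 10639 genes with a mean of at least 5 CPM, by Pearson's r of log2 CPM and as a description. For Apln they were Trp53i11 (0.96), Adgrf5 (0.93) and Lmo7 (0.93), for Pgf Trp53i11 (0.94), Ackr3 (0.93) and Adgrf5 (0.92), and for Angpt2 S1pr1 (0.95), Sh2d5 (0.94) and Trp53i11 (0.91). S1pr1, a sphingosine phosphate receptor, and Adgrf5 are known from endothelial cells, and Ackr3 is a scavenger receptor of adrenomedullin and of chemokines. For Vegfa they were Cdkn1b (0.95), Fzd7 (0.95) and the glucose transporter Slc2a3 (0.94), and for Adm Impdh1, Ier3 and Insig2 (0.94 each). For Angpt1 they were Dpt (0.95), Gas1 (0.95) and Fbln1 (0.94), of which Dpt and Fbln1 are extracellular matrix genes of fibroblasts. For Vegfc the closest was Enpp1 (0.81), for Vegfb Pip4p1 (0.94), for Angptl2 Cox4i2 (0.88) and for Angptl4 H13 (0.82).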

How the data were processed

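RNA-seq libraries of heart slices were compared over 4 groups of 4. The deposited values are raw counts per Ensembl gene, which the authors made from STAR alignments (mm10, GRCm38) of 150 bp read pairs. More than 1 library kit is named, TruSeq mRNA in the labels and ScriptSeq after Ribo-Minus depletion in the methods. A kit that selects on poly(A) and one that depletes rRNA capture different transcripts, so levels may depend on which was used. Gene positions and exon lengths came from GENCODE M21.

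The quasi-likelihood test of edgeR 4.0.16 (robust, TMM, under R 4.3.3) was run on 24971 genes whose counts summed to 10 or more, in 1 fit of the 16 libraries with 4 group means, and p-values were adjusted over all genes by Benjamini-Hochberg. P-values measure the spread between these libraries, some of which share a mouse. Standard errors and 95% intervals were derived from the test statistic. Pattern likeness used log2 CPM with a prior count of 2. No pair of libraries was a duplicate (lowest chi-square per degree of freedom 5.39). The procedure was tested on simulated data.

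Deviations of same-numbered treated and untreated libraries from their group means correlated at 0.15, 0.59, 0.26 and 0.40 in Swhtr null and at -0.11, -0.084, 0.17 and 0.32 in WT slices, so the numbers were taken to pair the Swhtr null libraries only. The pairing comes from these correlations, since the labels do not say what a number marks, and it is uncertain. Treated Swhtr null replicate 3 correlated more with untreated replicate 4 (0.33) than with its own number. In WT slices, replicates 3 and 4 correlated most with their own number. Same-numbered Swhtr null and WT libraries cannot share a mouse. Their correlations were 0.31, 0.00837, -0.00745 and -0.0154 in treated and 0.10, 0.38, 0.00762 and 0.37 in untreated slices.

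The 10 ligands and all gene lists were chosen with earlier results of these data known. The 10 ligands and every listed receptor are named. Of the other lists, the named genes are taken from the 4 with the smallest p for the averaged treatment comparison and any called gene. Tnnt2, Ryr2, Nppa, Actn2 and Mmrn1 were named with their values in view. Markers of Schwann cells, adipocytes, mesothelium, lymphatic endothelium, lymphocytes and red blood cells were summed as well. Alternatives were DESeq2 1.42.0, limma 3.58.1 with quality weights, other filters and size factors, the libraries compared alone, a replicate block, no fold threshold and each library left out in turn. All 16 columns of counts were used.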

Additional observations from a re-analysis of the deposited data

Results flagged for a closer look

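In 84 groups of 4 values checked, 5 had 1 library far from the other 3, where chance gives about 1 in 20. Adm was at 78.9 CPM in treated Swhtr null replicate 1, against 118 to 122 CPM in the other 3 libraries of its group. The summed endothelial markers were at 1611 CPM in untreated Swhtr null replicate 4, against 1908 to 1941 CPM. The summed adipocyte markers were at 832 CPM in untreated Swhtr null replicate 3, against 605 to 619 CPM. The summed mesothelial markers were at 35.9 CPM in treated Swhtr null replicate 1, against 8.42 to 12.3 CPM, and at 33.3 CPM in untreated Swhtr null replicate 2, against 11.4 to 14.4 CPM.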

How the results depend on the processing

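For treated against untreated Swhtr null slices, 1 of the 10 ligands was called. The count was 2 with DESeq2 on all libraries or on the libraries compared, with limma, with edgeR's filter by expression and with the replicate block, also within genotype, and 0 with no filter and with edgeR on the libraries compared. Leaving out each replicate in turn gave 0 to 2. For the average over both genotypes the count was 0. It was 1 with DESeq2, limma and the replicate block, also within genotype (Angpt1 each time), and 1 with no fold threshold (Adm). Leaving out each replicate gave 0 to 1, with 1 without untreated Swhtr null replicate 2 (Angpt1, adjusted p = 0.024). In WT slices, where the numbers were not taken to pair the libraries, the block within genotype gave Adm a log2 fold change of -0.36 (adjusted p = 0.011, under the fold threshold). For the other 4 comparisons the count stayed at 0 under each alternative run. Among 1440 alternative values of single ligands, 7 lost a call, 15 gained one and 0 turned the direction of a called change. Another 58 uncalled values changed sign, all for ligands and comparisons with a log2 fold change of 0.16 or less in size. The causes of these shifts were not tested.

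Over all genes the count in Swhtr null slices was 155, against 460 with DESeq2 and 6 with edgeR on the libraries compared. Angpt1 has the lowest counts of the 10 ligands and the widest interval.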

Other observations

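Mmrn1, listed among the lymphatic endothelial markers, had 0 counts in all 8 Swhtr null libraries, against 3.03 to 9.88 CPM in the 8 WT libraries. It lies on chromosome 6 (GRCm38, 60924976 to 60989378). The absence followed the genotype label and not the treatment. Whether it belongs to the stop signal or to another difference between the Swhtr null and WT lines cannot be told apart in this design.

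S100b, a Schwann cell marker, rose in treated Swhtr null slices to 4.08 ± 1.82 CPM, against 1.32 ± 0.461 CPM in untreated ones (SD, n = 4 each, log2 fold change 1.62, adjusted p = 0.020). It was the 1 of 5 markers of its list called, where 0.621% of all genes were called. The list was mixed, with 3 positive and 2 negative log2 fold changes. Its summed level was 47.3 ± 6.99 CPM in treated and 49.1 ± 9.69 CPM in untreated Swhtr null slices. Krt19, a keratin of the mesothelial list, fell to 0.889 ± 0.309 CPM in treated Swhtr null slices, against 4.27 ± 1.83 CPM in untreated ones (log2 fold change -2.25, adjusted p = 0.0040), as 1 of 7 called. This list was mixed too, with 3 positive and 4 negative log2 fold changes and a median of -0.17. The mesothelial sum was 16.7 ± 12.9 CPM in treated and 17.6 ± 10.5 CPM in untreated Swhtr null slices. Of the adipocyte, lymphatic endothelial, and lymphocyte and red blood cell markers, 0 were called in this comparison.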
